A study of Mus musculus with 28 samples.

Results

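The miRNAs miR-21, miR-146 and miR-150, known from work on leukocytes and inflammation, were followed in extracellular vesicles (EVs) purified from mouse plasma. Members were the entries mmu-miR-21a-5p, mmu-miR-146a-5p, mmu-miR-146b-5p, mmu-mir-146b and mmu-miR-150-5p of the deposited count table, picked by identifier. All 5 were found among its 1240 miRNA entries and 18710 entries in all. Entries spelled miR are mature miRNAs, and mmu-mir-146b is the hairpin precursor of miR-146b. The 4 mature entries passed the filter on low counts and were tested, while the precursor did not.

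The 28 libraries came from 28 mice, 2 months old, in the groups WT control (n = 6), WT NMES (n = 6), KlHET control (n = 8) and KlHET NMES (n = 8). KlHET mice carry 1 disrupted allele of Kl (B6;129S5-Kl tm1Lex), the gene of the hormone and co-receptor KLOTHO, in every cell, and WT mice carry none. Neuromuscular electrical stimulation (NMES) drove the hind leg muscles at 9 mA under 2.5% isoflurane, in 2 sets of 10 stimulations on each leg and 5 sessions every other day. Controls breathed the same anesthetic for 15 min on those days without stimulation, and blood was drawn 24 h after the last session, under Avertin. A purification column isolated the EVs of 400 µL of plasma per mouse, and such a preparation pools EVs of every tissue that releases them into blood. A change in the number of EVs from one source and a change in the miRNA content of each EV cannot be told apart.

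A mature miRNA guides Argonaute proteins to messenger RNAs, mainly through its seed at bases 2 to 8 from the 5′ end, and lowers their translation and stability. miR-146a and miR-146b are induced by NF-κB or cytokine signaling. Both repress TRAF6 and IRAK1, signaling proteins downstream of Toll-like receptors, and so act as brakes on inflammation. miR-21 rises in activated macrophages and in many injured tissues and represses the translation inhibitor PDCD4. miR-150 is abundant in mature B, T and NK lymphocytes and represses the transcription factor c-Myb.

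The mature sequences are shown because the members fall into seed groups and because the miR-146 pair is nearly identical. They are given 5′ to 3′ as listed by RefSeq for GRCm38.p6, in which 3 of the 4 mature members were matched, with the seed in capitals.
miR-21a-5p: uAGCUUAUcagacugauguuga
miR-21c: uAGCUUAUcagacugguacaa
miR-146a-5p: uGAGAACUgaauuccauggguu
miR-146b-5p: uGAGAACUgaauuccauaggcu

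miR-146a-5p and miR-146b-5p share the seed GAGAACU and 20 of 22 bases. They differ by G18A and U21C, with the base of miR-146a-5p first and positions counted from 1 at the 5′ end. miR-21a-5p has another seed, AGCUUAU, which it shares with its paralogue miR-21c. How reads that match several entries were divided is not given in the sources used here, so counts of such near-identical entries carry that uncertainty.

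The miRNA genes lie apart from each other. On GRCm38.p6 the mature miR-21a-5p lies at chr11:86584120-86584141 on the minus strand, within an exon of the protein-coding gene Vmp1 in the GENCODE vM21 annotation. miR-146a-5p lies at chr11:43374435-43374456 on the minus strand, where the annotation lists the miRNA gene alone. miR-146b-5p lies at chr19:46342790-46342811 on the plus strand, inside Mfsd13a and outside its exons. The Mir146b hairpin follows, because its precursor entry and its mature 5p entry are both members, with the mature 5p arm in capitals.
mir-146b: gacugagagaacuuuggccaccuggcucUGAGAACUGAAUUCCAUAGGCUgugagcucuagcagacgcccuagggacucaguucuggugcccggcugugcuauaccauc

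Totals per library ranged from 531261 to 3389206 counts, of which 8992 to 96496 were miRNA counts (median 20378.5). Levels are CPM, counts scaled to a common miRNA library size with TMM factors, which are set by the bulk of entries rather than by the most abundant ones. In library J3517 (KlHET control) the entry miR-8117 took 65.7% of the miRNA counts, and the TMM factor was 0.0346. Its members rested on 21 counts of miR-21a-5p, 4 of miR-146b-5p, 2 of miR-150-5p and 1 of miR-146a-5p. Library A3206 (WT control) held 11098 counts of the neuron markers miR-9-5p, miR-124-3p and miR-128-3p, against at most 830 in the libraries of any other group. All WT libraries are named A and all KlHET libraries J, so that genotype and any handling shared by a name series cannot be told apart. No batch or replicate number was given by the labels.

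The mature members ranked from 20 to 79 of 1240 miRNA entries by median level, and 129 of these entries passed the filter on low counts. miR-21a-5p ranked 20 of 1240 by median level (9728 CPM, 7992 counts over all libraries). miR-146a-5p ranked 50 (1997 CPM, 1563 counts) and miR-146b-5p ranked 52 (1848 CPM, 3062 counts). Their medians over all libraries were close, although the levels of the pair diverged by genotype as given below. miR-150-5p, the lymphocyte miRNA, ranked 79 (705 CPM, 595 counts). Each of these 4 had counts in all 28 libraries. The precursor mir-146b ranked 191 with 89 counts in 20 of 28 libraries, and thus lay near the detection limit.

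miR-146b-5p was the only member called in the main analysis, and only for KlHET minus WT in control mice. Genotype and library name series cannot be told apart in that comparison. In WT control EVs the lowest, median and highest levels of miR-146b-5p were 2319, 3746 and 74969 CPM. In KlHET control EVs they were 615, 1370 and 2387 CPM. The groups overlapped by 1 library on each side, J3578 of KlHET control at 2387 CPM and A3208 of WT control at 2319 CPM. The log2 difference of KlHET minus WT in control mice was −3.51 (SE 0.64, 95% interval −4.82 to −2.20, adjusted p = 0.000209, by the quasi-likelihood test of edgeR, adjusted after Benjamini and Hochberg over 129 entries). In this comparison 32 of the 129 entries passed the test (24.8%), 21 of them lower in KlHET (16.3%), and 1 of the 4 members tested was called, so that the members' share lay near the background.

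The size of that difference rested on 1 mouse. WT control library A3202 held 1448 counts of miR-146b-5p, or 74969 CPM, with a 95% counting interval of 71156 to 78931 CPM. The other 5 WT control libraries lay between 2319 and 3868 CPM. Without A3202 the log2 difference was −1.28 (SE 0.37, 95% interval −2.05 to −0.52, adjusted p = 0.0142, edgeR), a level 2.43-fold lower in KlHET. There the background was 33 of 136 entries (24.3%). miR-146b-5p was called in both fits, while the fold fell from 11.4 to 2.43. Leaving out A3206 and J3517 in addition gave −1.47 (adjusted p = 0.0176, edgeR), beside 18 of 139 entries called (12.9%).

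Among 9 alternatives to the main analysis the difference ranged from −3.83 to −1.28. The adjusted p ranged from 2.44e-07 to 0.0176 over the 8 that gave one, by edgeR. DESeq2 gave −3.46 (SE 0.62) and no p, and thus did not call the entry. Its p for miR-146b-5p was missing in all 6 comparisons, with its filter on mean counts turned off and A3202 retained. The reason for the missing p was not tested.

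In NMES-treated mice the estimate had the same direction. miR-146b-5p had lowest, median and highest levels of 1167, 2661 and 5395 CPM in WT NMES and of 422, 1577 and 2065 CPM in KlHET NMES. Library A3209 of WT NMES (1167 CPM) lay inside the KlHET NMES range, and the other WT NMES libraries, from 2075 CPM up, lay above it. The lowest of these, A3201, had a 95% counting interval of 1496 to 2805 CPM, which includes the highest KlHET NMES level. The log2 difference of KlHET minus WT was −1.03 (SE 0.60, 95% interval −2.27 to 0.20, adjusted p = 0.351, edgeR) and was not called. Here 4 of 129 entries were called (3.1%), 0 of them members. Without A3202 the log2 difference was −1.04 (SE 0.35, adjusted p = 0.100 over 136 entries, edgeR), beside −1.28 in control mice. That library belongs to neither group and enters through the filter, the scaling and the shared spread. The difference between the control and the NMES value, which equals the difference of the NMES effect between genotypes, is given with that effect and was not called with or without A3202.

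**Figure D1:**
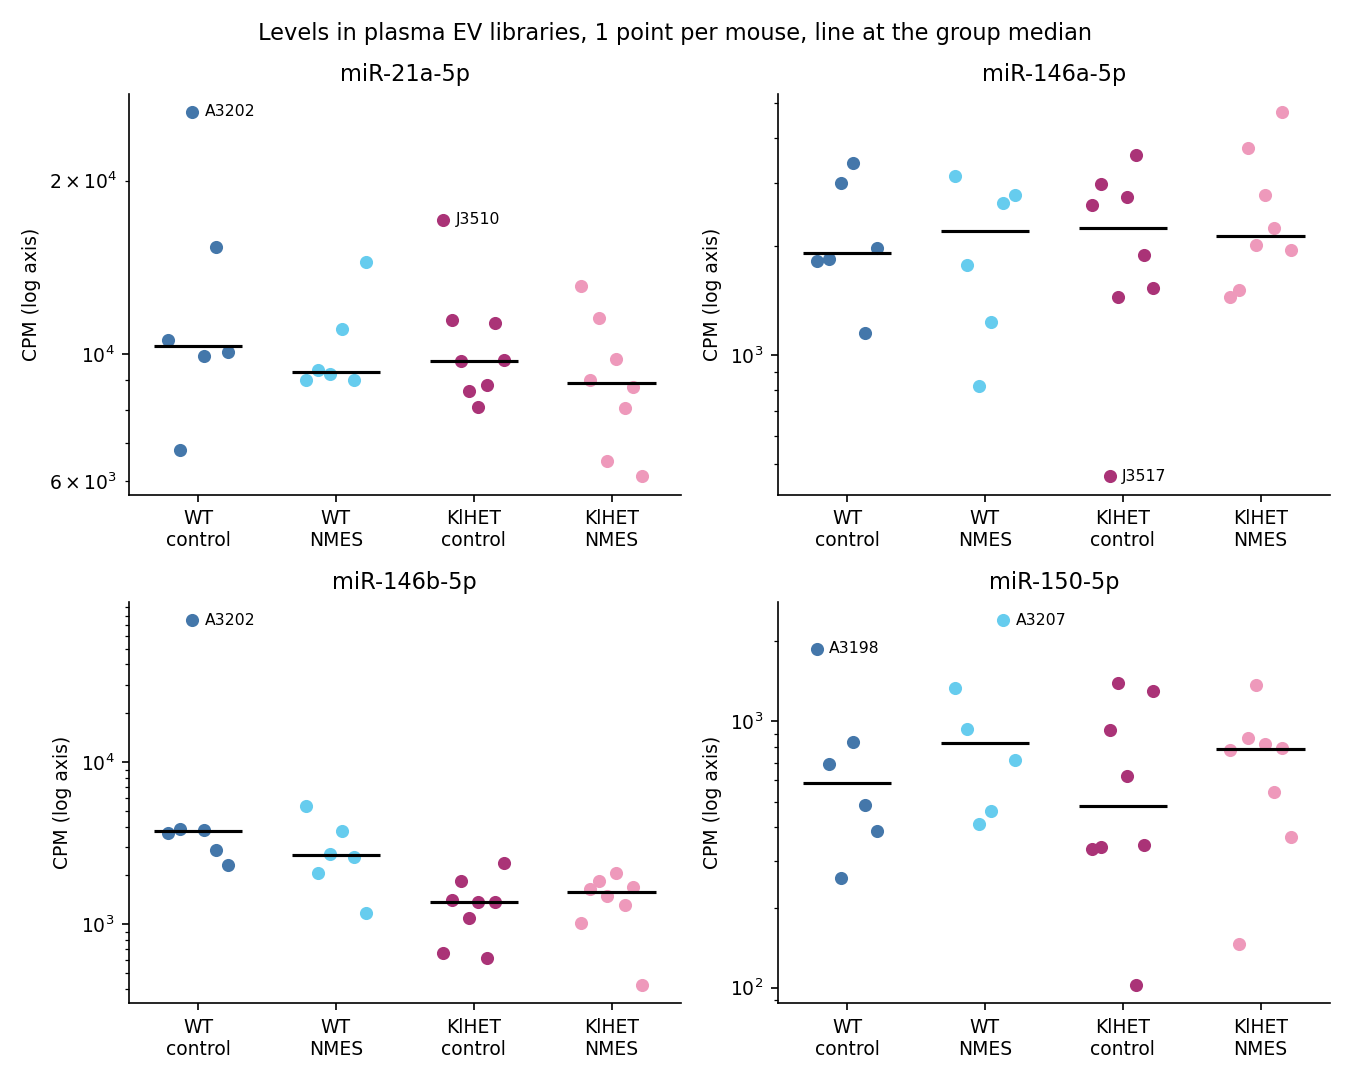
Level of the 4 tested members in each of the 28 libraries, in CPM on a log axis, by group (6, 6, 8 and 8 mice), with a line at each group median. miR-146b-5p sat at 2319 CPM or above in all WT control libraries with A3202 at 74969 CPM, and at 2387 CPM or below in all KlHET libraries, while the groups overlapped widely for the other members.

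miR-146a-5p, the near-identical partner with the same seed, did not follow this pattern. Its lowest, median and highest levels were 1156, 1913 and 3401 CPM in WT control and 463, 2248 and 3586 CPM in KlHET control. They were 823, 2210 and 3130 CPM in WT NMES and 1448, 2131 and 4716 CPM in KlHET NMES. The 4 groups overlapped almost wholly, and the lowest value, in J3517, was a single count with a 95% counting interval of 11.7 to 2578 CPM. The log2 difference of KlHET minus WT was 0.01 in control mice (SE 0.36, 95% interval −0.73 to 0.74, adjusted p = 0.988) and 0.30 in NMES mice (SE 0.36, 95% interval −0.44 to 1.04, adjusted p = 0.732, edgeR). Differences of up to 0.73 on the log2 scale in either direction lie within the interval in control mice.

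The ratio of miR-146b-5p to miR-146a-5p counts within a library needs no scaling between libraries. It had a lowest, median and highest value of 1.12, 2.05 and 24.97 in WT control and of 0.419, 1.45 and 3.30 in WT NMES. In KlHET control it was 0.171, 0.614 and 4.00, and in KlHET NMES 0.216, 0.644 and 1.10. miR-146b-5p outnumbered miR-146a-5p in all 6 WT control libraries and in 4 of 6 WT NMES libraries. It did so in 2 of 8 KlHET control and 1 of 8 KlHET NMES libraries, and the highest KlHET control ratio, 4.00 in J3517, rested on 4 counts against 1. Without A3202 the WT control median was 2.01 and the highest value 2.47. This ratio was not tested, since it was chosen after the levels had been seen.

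**Figure D2:**
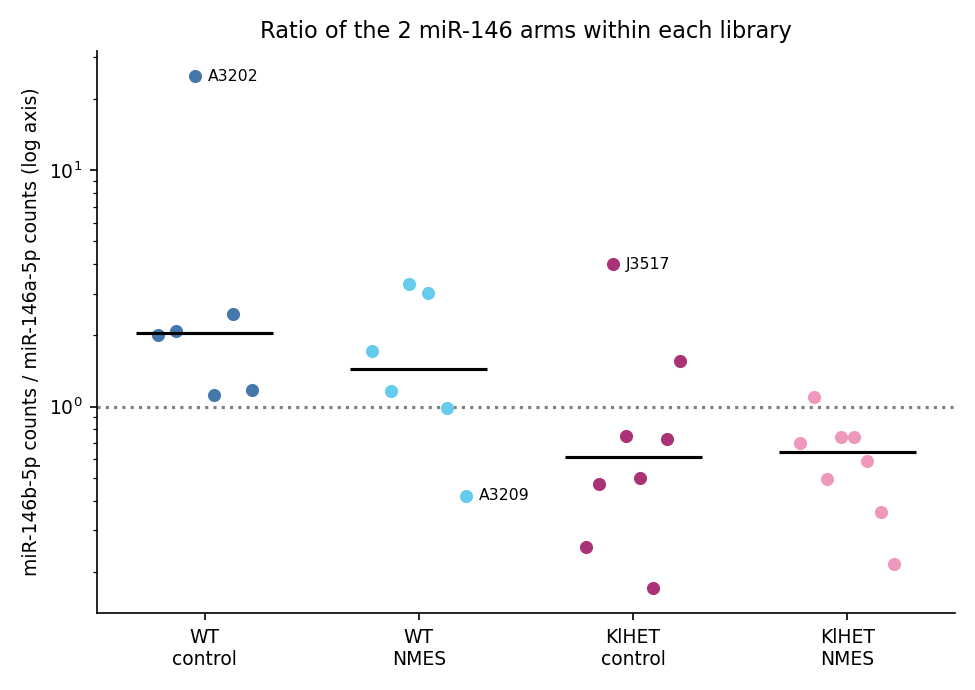
Counts of miR-146b-5p divided by counts of miR-146a-5p in each of the 28 libraries, on a log axis, by group, with a line at each group median and a dotted line at equal counts. Medians were 2.05 in WT control, 1.45 in WT NMES, 0.614 in KlHET control and 0.644 in KlHET NMES, and A3202 stood at 24.97.

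The precursor mir-146b gave few counts. Over the 6 WT control libraries it had 59 counts, with 2 to 32 per library, of which 32 were in A3202, the library with the most miR-146b-5p. WT NMES had 9 counts, with 0 to 3 per library. KlHET control had 11 counts, 6 of them in J3526, and 4 of 8 libraries were at 0, while KlHET NMES had 10 counts and 3 of 8 libraries at 0. The precursor equaled 2.21% of the miR-146b-5p counts in A3202 and 2.68% to 7% in the other WT control libraries. Both members from this gene were thus high in A3202. The mature arm lies within the hairpin and the division of reads between them is not given, so the precursor is not an independent measure. Fitted with no filter over 1093 entries, the precursor had a log2 difference of −2.30 for KlHET minus WT in control mice (SE 0.97, adjusted p = 0.176, edgeR), which was not called.

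miR-21a-5p had the smallest SD relative to its mean of the 4 tested members over the 28 libraries. Its lowest, median and highest levels were 6813, 10313 and 26353 CPM in WT control and 8992, 9303 and 14424 CPM in WT NMES. They were 8075, 9728 and 17111 CPM in KlHET control and 6122, 8882 and 13112 CPM in KlHET NMES. All 4 groups overlapped, and the highest values were in A3202 and in J3510 of KlHET control. The log2 difference of KlHET minus WT was −0.31 in control mice (SE 0.26, adjusted p = 0.371) and −0.18 in NMES mice (SE 0.26, adjusted p = 0.764, edgeR). Without A3202 the value in control mice was 0.09 (SE 0.23, adjusted p = 0.793, edgeR).

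miR-150-5p had a wide spread within each group. Its lowest, median and highest levels were 259, 589 and 1874 CPM in WT control and 411, 828.5 and 2398 CPM in WT NMES. They were 102, 482 and 1394 CPM in KlHET control and 146, 789 and 1366 CPM in KlHET NMES. The groups overlapped over most of their range, and the lowest level, in J3528 of KlHET control, was 1 count. The log2 difference of KlHET minus WT was −0.19 in control mice (SE 0.54, adjusted p = 0.794) and −0.56 in NMES mice (SE 0.53, 95% interval −1.64 to 0.52, adjusted p = 0.648, edgeR). These intervals include a level 2-fold lower in KlHET, so that the data do not tell such a difference from none.

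No member was called for NMES, and the value nearest to a call, for miR-146b-5p in WT, rested on library A3202. For NMES minus control 0 of 4 members were called in WT (background 0 of 129, 0%, with 22 or 17.1% at an unadjusted p under 0.05), and 0 of 4 in KlHET (background 6 of 129, 4.65%). As the mean of both genotypes 0 of 4 were called (background 0 of 129, 0%, with 22 or 17.1% unadjusted), and for the difference of the NMES effect between genotypes 0 of 4 (background 3 of 129, 2.33%). DESeq2 called 4 of 129 entries in WT, none of them a member (miR-146b-5p had no p there), and 0 as the mean of both genotypes.

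For miR-21a-5p the NMES effect was −0.35 in WT (SE 0.27) and −0.22 in KlHET (SE 0.24), with adjusted p of 0.577 and 0.978 by edgeR. For miR-146a-5p it was −0.08 in WT (SE 0.38, adjusted p = 0.970) and 0.21 in KlHET (SE 0.34, adjusted p = 0.978, edgeR). For miR-150-5p it was 0.47 in WT (SE 0.56, adjusted p = 0.712) and 0.10 in KlHET (SE 0.51, adjusted p = 0.978, edgeR). These 3 miRNAs thus had values on the log2 scale between −0.35 and 0.47, each smaller than 2 SE. Their difference of the effect between genotypes was 0.13 (SE 0.36), 0.29 (SE 0.51) and −0.37 (SE 0.76), in the same order.

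For miR-146b-5p the NMES effect in WT was −2.36 (SE 0.67, unadjusted p = 0.00141, adjusted p = 0.0693, edgeR) and was not called. Without A3202 it was −0.03 (SE 0.39, 95% interval −0.84 to 0.78, adjusted p = 0.981, edgeR), since that library is a WT control. In KlHET it was 0.11 (SE 0.58, adjusted p = 0.978, edgeR). The difference of the effect between genotypes was 2.48 (SE 0.88, adjusted p = 0.108) with all libraries and 0.24 (SE 0.52, adjusted p = 0.865, edgeR) without A3202. The mean effect over both genotypes was −1.12 (SE 0.44, adjusted p = 0.198) with all libraries and 0.09 (SE 0.26, adjusted p = 0.873, edgeR) without A3202.

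Over its alternatives the miR-146b-5p effect of NMES in WT ranged from −2.57 to −0.03, with adjusted p from 0.0228 to 0.981 by edgeR. It passed the threshold with TMM over all RNA classes, with no filter and without WT control library A3198. All of these retained A3202.

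**Figure D3:**
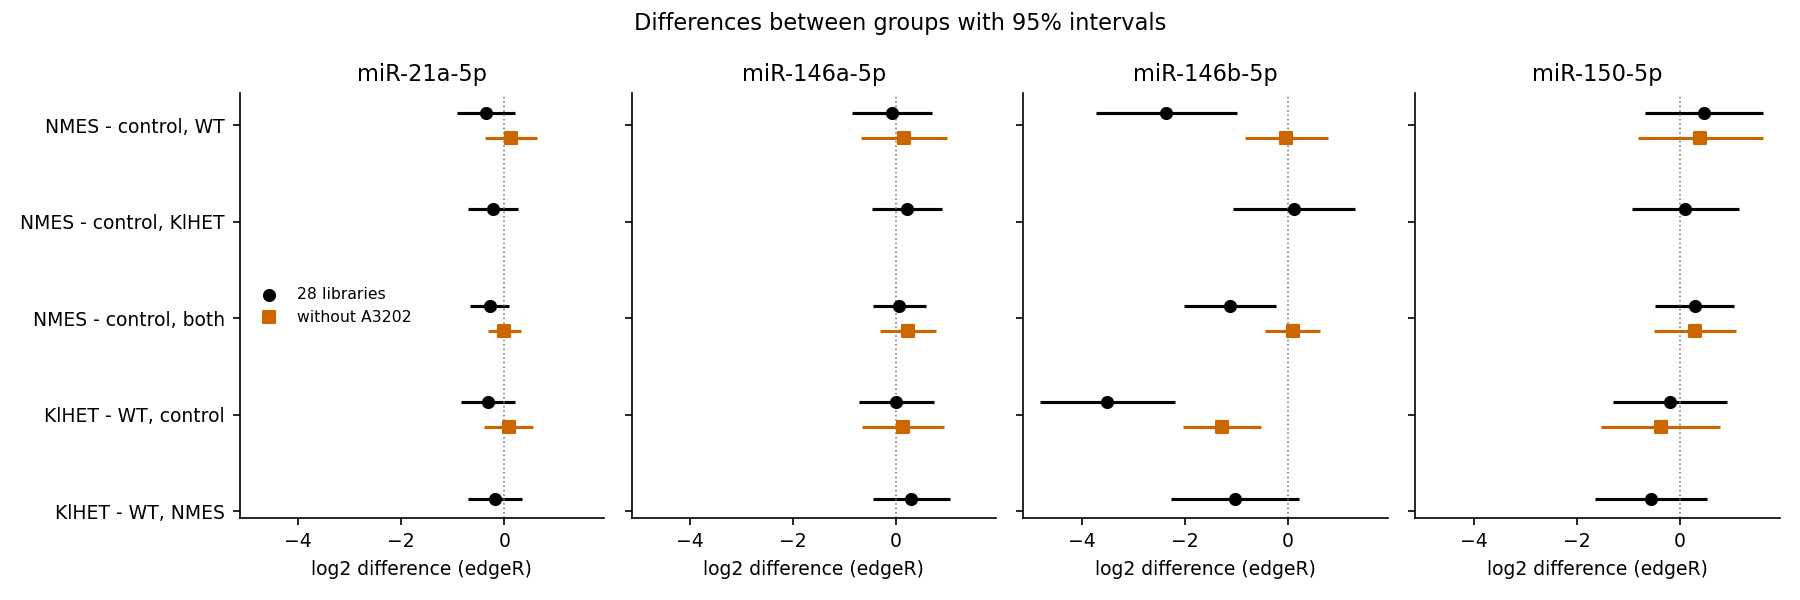
Log2 differences between groups by edgeR for the 4 tested members, with 95% intervals as lines, for NMES minus control in WT, in KlHET and in both, and for KlHET minus WT in control and in NMES mice. Circles are the fit to 28 libraries and squares the fit without library A3202, drawn for comparisons that use WT control mice: miR-146b-5p moved from −3.51 to −1.28 for KlHET minus WT in control mice and from −2.36 to −0.03 for NMES minus control in WT.

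The label of leukocyte miRNAs was checked against miRNAs that define leukocytes in blood. miR-142a-3p and miR-142a-5p, present throughout the hematopoietic lineage, had 30 and 75 counts over all 28 libraries, and miR-223-3p, the myeloid miRNA, had 201. miR-155-5p of activated lymphocytes and macrophages had 13 counts and was at 0 in 23 libraries, and miR-342-3p had 101. None of the 5 markers passed the filter on low counts, and miR-142a-3p was at 0 in 20 libraries, so that these 2 markers, miR-142a-3p and miR-155-5p, were at 0 in most libraries. miR-223-3p had counts in 27 of 28 libraries, with up to 22, and miR-342-3p reached 23 in A3206. The summed level of the 5 leukocyte markers was 250 to 856 CPM in WT control, 165 to 671 in WT NMES, 303 to 1285 in KlHET control and 195 to 1378 in KlHET NMES. These ranges overlapped, with medians of 658 CPM in KlHET control and 365 CPM in WT control. The sums rested on few counts, 1 to 40 per library in KlHET control and 5 to 60 in WT control. The difference was not tested.

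**Figure D4:**
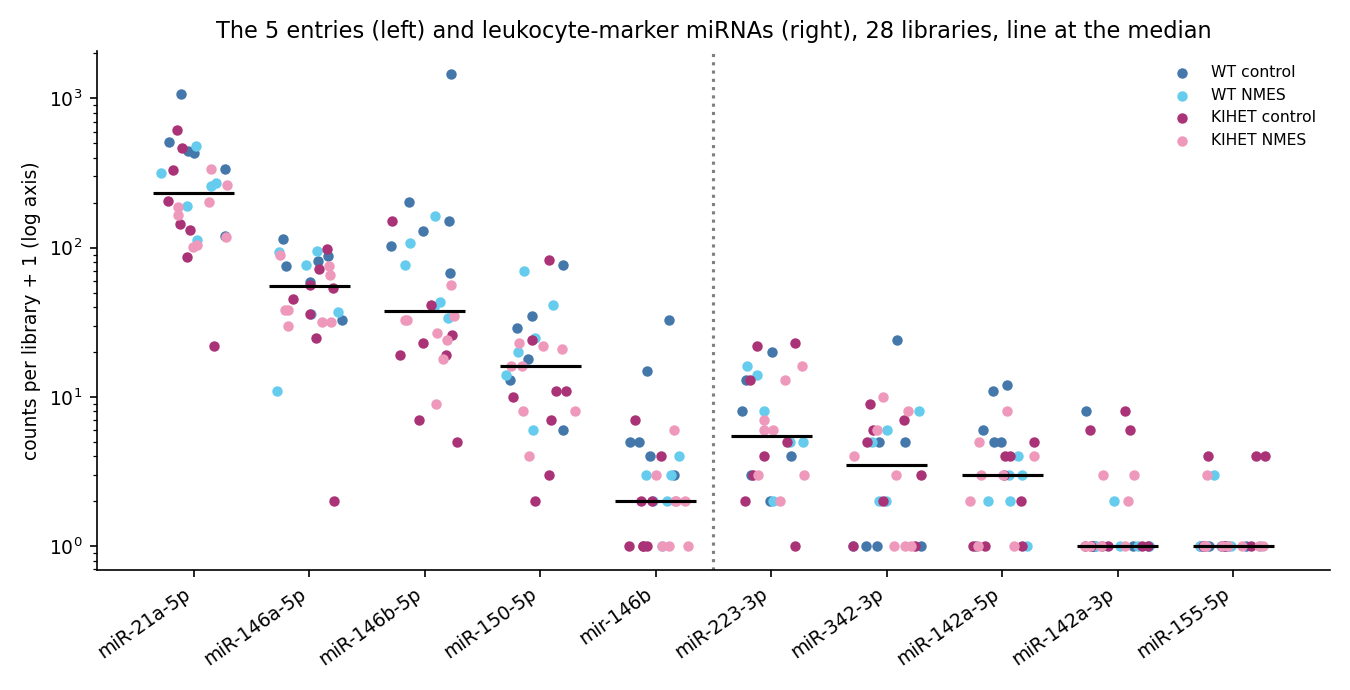
Counts per library plus 1, on a log axis, of the 5 members (left of the dotted line) and of 5 leukocyte markers (right), with each library as a point colored by group and a line at the median over 28 libraries. Median counts were 231 for miR-21a-5p, 54 for miR-146a-5p, 36.5 for miR-146b-5p, 15 for miR-150-5p and 1 for the precursor mir-146b, and 4.5 for miR-223-3p, 2.5 for miR-342-3p, 2 for miR-142a-5p and 0 for miR-142a-3p and miR-155-5p.

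Other miRNAs of leukocytes and inflammation were taken as a list of 12, which includes these 5 markers. The 7 that passed the filter were miR-23a-3p, miR-24-3p, miR-27a-3p, miR-29a-3p, miR-125a-5p, miR-181a-5p and miR-181b-5p, and 0 of 7 were called in any of the 6 comparisons. The share called over all 129 entries was 24.8% for KlHET minus WT in control, 3.1% for it in NMES, 4.65% for NMES in KlHET, 2.33% for the difference of the NMES effect and 0% for the other comparisons. For KlHET minus WT their median log2 difference was 0.34 in control and 0.60 in NMES mice, against −0.21 and 0.03 over all 129 entries. The 7 lay on both sides of 0. In control mice their log2 differences ran from −1.05 for miR-181b-5p and −0.81 for miR-125a-5p to 0.67 for miR-23a-3p and 0.98 for miR-29a-3p, an inhibitor of collagen messages. In NMES mice they ran from −0.92 for miR-125a-5p to 1.17 for miR-23a-3p (adjusted p = 0.0685, edgeR).

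Markers of other sources were compared between the control genotypes as well, where 24.8% of all entries were called and 16.3% called lower. miR-126a-3p of platelets and endothelium was lower in KlHET control (log2 difference −0.87, SE 0.26, adjusted p = 0.0145, edgeR), with 2093 to 4281 CPM against 3935 to 8889 CPM in WT control. Liver miR-122-5p was lower as well (−1.52, SE 0.54, adjusted p = 0.0362, edgeR), with 4877 to 37480 CPM against 17698 to 202238 CPM. The erythroid markers miR-451a, miR-144-3p, miR-486a-5p and miR-16-5p summed to 21745 to 73704 CPM in KlHET control and 26490 to 58223 CPM in WT control, and 0 of the 3 tested were called. The skeletal muscle list summed to 2026 to 41703 CPM in KlHET control and 2541 to 32555 CPM in WT control, and 0 of its 2 tested were called. Both neuron markers tested, miR-9-5p and miR-128-3p, were called lower in KlHET control, with sums of 845 to 4553 CPM against 1700 to 158399 CPM in WT control, the highest being A3206. Their median sum was the other way round, 2960 CPM in KlHET control and 2628 CPM in WT control. Without A3206 and J3517 neither was called, with miR-9-5p at −0.99 (adjusted p = 0.512) and miR-128-3p at 0.19 (adjusted p = 0.854, edgeR), while miR-126a-3p and miR-122-5p remained called at −0.89 and −1.86 (adjusted p = 0.0331 and 0.0164, edgeR). The part of these sources in the miR-146b-5p difference was not tested.

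Entries of the same miRNA genes other than the members gave few counts. The precursor mir-21a had 143 counts over all libraries, 64 of them in the 6 WT control libraries, and the paralogue miR-21c had 65, 36 of them in WT control. These counts are not scaled for depth. WT control libraries had a median of 32806.5 miRNA counts, against medians of 16685 to 21905 in the other groups. miR-21b had 2 counts, miR-21a-3p 1 count and miR-146b-3p 2 counts. The 5p arm thus held nearly all mature counts of miR-21a and miR-146b. The precursor mir-146a had 2 counts, against 1563 of its mature 5p arm. miR-150-3p had 59 counts, 50 of them in the 16 KlHET libraries, against 595 of miR-150-5p, and the precursor mir-150 had 9 counts, 8 of them in J3578. None of these entries passed the filter on low counts, and no test was made for them.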

How the data were processed

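Groups were taken from the genotype and treatment labels, with 1 library per mouse. The authors aligned single-end small RNA reads with STAR 2.5.3a (build mm10) and counted annotated RNAs with COMPSRA 1.0.3. The deposited table holds raw counts, whole numbers with differing library totals. Adapter trimming and the handling of multi-mapping reads are not given in the sources used here. Intervals of counts are exact Poisson intervals and cover counting error only, since the libraries carry no molecular identifiers.

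With R 4.3.3 and edgeR 4.0.16, miRNA entries were filtered by filterByExpr by group (129 of 1240 kept), scaled by TMM and fitted with 1 mean per group over 28 libraries. Quasi-likelihood tests were adjusted by Benjamini-Hochberg over the 129 entries and called at an adjusted p under 0.05. The SE was obtained as the size of the log2 difference over the root of its F statistic. The procedure was also run on simulated negative binomial counts around a common profile, with some entries changed in KlHET control. No outlying library was built into that simulation, so it does not bear on A3202. Alternatives were DESeq2 1.42.0, library size alone, TMM over all RNA classes, no filter, mature arms only, only the groups compared and libraries left out. Leaving out A3202, alone or with A3206 and J3517, was added after seeing the data. So were the values of the source markers in refits without A3206 and J3517 and without A3202. The genes named were the 5 members, other entries of their genes, fixed lists of leukocyte and source markers and, per member, the 3 entries with the nearest pattern. The members and lists were chosen with earlier results of these data known. RefSeq (GRCm38.p6) supplied positions and sequences, and GENCODE vM21 the overlapping genes.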

Additional observations from a re-analysis of the deposited data

Results flagged for a closer look

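In 5 of the 20 combinations of member and group, 1 library lay farther from its neighbor than Dixon's 95% criterion allows. By chance the criterion flags about 1 in 20 groups of independent, normally distributed values. These combinations share libraries, and the precursor holds few counts, so the 5 are a description and not an excess over chance. miR-146b-5p stood at 74969 CPM in WT control library A3202, with the next WT control library at 3868 CPM. The precursor mir-146b stood at 1656.8 CPM in the same library, from 32 counts. mir-146b stood at 372.68 CPM in KlHET control library J3526, from 6 counts. miR-21a-5p stood at 17111 CPM in KlHET control library J3510, and miR-150-5p at 1874.2 CPM in WT control library A3198, from 76 counts.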

How the results depend on the processing

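Of 208 values of 24 member results under alternatives, 171 kept their direction and their side of the threshold, 29 reversed and 2 newly passed the threshold. A further 6, those of miR-146b-5p by DESeq2, kept their direction and had no p. None of the reversed values was called. KlHET minus WT in control mice kept 1 member called, miR-146b-5p, under every alternative but DESeq2, which gave 0 because its p was missing. Leaving out each library in turn gave −3.58 to −1.28, called in all 14. NMES minus control in WT went from 0 members called to 1 with TMM over all RNA classes (−2.57) and to 1 with no filter (−2.06). Leaving out each library gave −2.43 to −0.03 for it, with 1 of 12 called (without A3198, adjusted p = 0.0326, edgeR), 0.24 to 2.59 for the difference between genotypes, and −1.15 to 0.088 for the mean effect, the latter without A3202.

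Reversed values follow by setting. With library size alone, miR-21a-5p was at 0.072 for NMES in WT, 0.059 in KlHET, 0.066 as the mean and −0.013 for the difference between genotypes, and miR-146a-5p at 0.22 for NMES in WT and −0.032 for KlHET minus WT in control. With TMM over all RNA classes, miR-150-5p was at −0.0048 for NMES in WT, −0.081 in KlHET and −0.043 as the mean, miR-146b-5p at −0.079 for NMES in KlHET, and miR-146a-5p at −0.16 for the mean and −0.65 for KlHET minus WT in control. That scaling moved the median of all entries by −0.75 in the latter comparison and by −0.56 for NMES in WT, and library size alone moved the median for NMES in WT by 0.33. Calls for KlHET minus WT in control were 65.6% lower in the main analysis, 83.8% with TMM over all classes and 45% with only the groups compared. Of all entries, 32 were called there in the main analysis, 14 with library size alone, 20 with only the groups compared, 20 without A3206 and J3517 and 18 without A3202 as well. With no filter, miR-146a-5p was at 0.0049 for NMES in WT and −0.060 for KlHET minus WT in control, and miR-21a-5p at −0.031 for the difference between genotypes. Without A3206 and J3517, miR-146a-5p was at −0.022 for the mean and −0.051 for KlHET minus WT in control. Without A3202, miR-21a-5p was at 0.12 for NMES in WT, 0.0050 as the mean, −0.24 for the difference and 0.091 for KlHET minus WT in control, miR-146a-5p at 0.15 for NMES in WT and miR-146b-5p at 0.088 as the mean. Without A3202, A3206 and J3517, miR-21a-5p was at 0.21, 0.016, −0.38 and 0.18 in the same order, miR-146b-5p at 0.034 as the mean and miR-150-5p at 0.055 for the difference. The cause was not tested.

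No paired analysis was made, since each mouse gave 1 library and mice were assigned to NMES or control at random. miR-150-5p and the precursor mir-146b had medians of 15 counts and 1 count per library, which limits what the fits can show for them.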

Other observations

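The tested mature entries with levels most like each member over the 28 libraries, among 109 compared, were found by Spearman's rho of log2 CPM, as a description. For miR-146b-5p they were miR-10a-5p (0.82), miR-10b-5p (0.77) and miR-100-5p (0.71). Within the 12 WT libraries these values were 0.70, 0.36 and 0.36, and within the 16 KlHET libraries 0.46, 0.34 and 0.06. All points share library depth and scaling, and the genotypes differ in miR-146b-5p, so that the pooled values include that difference. The nearest entries were less alike for miR-146a-5p (miR-5108, 0.53), miR-150-5p (miR-194-5p, 0.47) and miR-21a-5p (miR-148b-3p, 0.41).

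Library A3202 was the highest of all 28 in 10 of the 129 tested entries, chosen after the values were seen. Besides miR-146b-5p and miR-21a-5p, the widest gaps were for the epithelial miRNAs miR-203-3p, at 37484 CPM with the next library at 7910 CPM, and miR-205-5p, at 2848 CPM with the next at 1486 CPM. miR-148a-3p was at 143880 CPM there, with the next library at 102270 CPM. The remaining entries, with narrower gaps, were miR-532-5p, let-7b-5p, mir-10a, miR-486a-3p and miR-669c-5p.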
